A study of Mus musculus with 12 samples.

Results

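Amino acid transporters of 7 solute carrier (Slc) families were examined in whole mouse ovaries that lacked the kinase Mtor in oocytes and in wild-type ovaries. The members are the genes whose symbols consist of Slc1a, Slc3a, Slc6a, Slc7a, Slc36a, Slc38a or Slc43a and a number, which gave 58 of the 24255 genes of the deposited table after leaving out 1 gene of the same name pattern. The rule for members uses names only and no measured value, but it was chosen with earlier results of these data known. The pattern also takes in relatives that carry other cargo, such as the creatine transporter Slc6a8, the monoamine transporters Slc6a2, Slc6a3 and Slc6a4, and Slc43a3, which carries purine nucleobases.

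Whole ovaries of CKO mice (5 libraries), in which a Cre recombinase driven by the Gdf9 promoter deleted Mtor in oocytes, were compared with those of wild-type (WT) mice (7 libraries). The mice of both genotypes were of the C57BL/6 strain and 6 months of age, and each was primed with 5 IU of equine chorionic gonadotropin (PMSG), which makes follicles grow, 46 h before the ovaries were taken. The unit is FPKM, which counts fragments relative to transcript length and to sequencing depth, so levels can be set side by side between genes. Count totals were not used; the spacing of the lowest FPKM values showed depths that differed by up to 2.19-fold between libraries. For a transcript of 1 kb, a single fragment corresponded to 0.298 to 0.652 FPKM, and at that length a level under 1 FPKM reflects very few fragments. On a longer transcript 1 fragment is worth less, such as 0.0826 to 0.181 FPKM for Slc6a15 on 3607 bases. The labels name separate samples but no animals, and each p-value therefore covers only the spread seen among these 12 libraries, which may be technical. The column name of one WT library matches the title of one WT sample and the description of another, so it was given no replicate number and is called the unnumbered WT library; by the descriptions alone it would be WT replicate 5. Of 80 cytosolic ribosomal protein genes, 11 were listed at 0 in all 12 libraries, so a 0 in this table can be a failed estimate, and the called members that hold a 0 are given library by library. Mtor RNA of the whole organ, most of whose cells keep the gene, lay between 4.63 and 5.88 FPKM in CKO and between 3.84 and 5.55 FPKM in WT, which does not check the genotype labels.

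Transporters of these families move amino acids across the cell surface and the lysosomal membrane. Sodium-coupled carriers of the Slc1a, Slc6a and Slc38a families concentrate amino acids inside the cell, the Slc7a light chains exchange one amino acid for another, mostly in a complex with the heavy chain Slc3a2, and the Slc36a carriers are driven by protons. Amino acids that enter the cell or leave the lysosome are sensed by the Mtor complex mTORC1. In the mouse follicle, oocytes receive part of their amino acids through gap junctions from the surrounding granulosa and cumulus cells, and oocytes are known to promote the transporter Slc38a3 in cumulus cells.

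Of the 58 members, 32 were expressed at 1 FPKM or more in at least 5 of the 12 libraries and entered the test across all genes. Another 20 had values above 0 but did not reach this level of detection, and 6 were listed at 0 in every library. Of the 32 tested members, 23 were at 1 FPKM or more in all 12 libraries. Slc6a14 passed the filter through its CKO values alone and Slc6a7 through its WT values alone, so their entry into the test already required a difference.

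The most abundant members were the same 6 genes in both genotypes, and the order among them differed. They were the heavy chain Slc3a2, the large neutral amino acid light chains Slc7a5 and Slc7a8, the glutamine and alanine carrier Slc38a2, the taurine carrier Slc6a6, and Slc38a10, a little studied member of the Slc38a family. Together they held 64.9% of the summed mean FPKM of all members in CKO and 69.6% in WT. In CKO, Slc3a2 had rank 1 with a mean of 118 ± 34.9 FPKM (SD, n = 5) and Slc6a6 rank 5 with 57.99 ± 17.5 FPKM. In WT, Slc6a6 had rank 1 with 122 ± 35.8 FPKM (SD, n = 7) and Slc3a2 rank 3 with 90.3 ± 13.8 FPKM. Neighbours in this order mostly lay within each other's spread: in WT, Slc7a5 had 93.5 ± 22.3 FPKM, next to Slc3a2, and in CKO, Slc38a2 had 90.4 ± 17.3 FPKM, next to Slc7a5 with 87.1 ± 28.9 FPKM. The largest change of rank was that of Slc38a3, which had rank 29 of 32 in CKO and rank 10 in WT. The summed mean of all 58 members was 736 FPKM in either genotype.

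**Figure D1:**
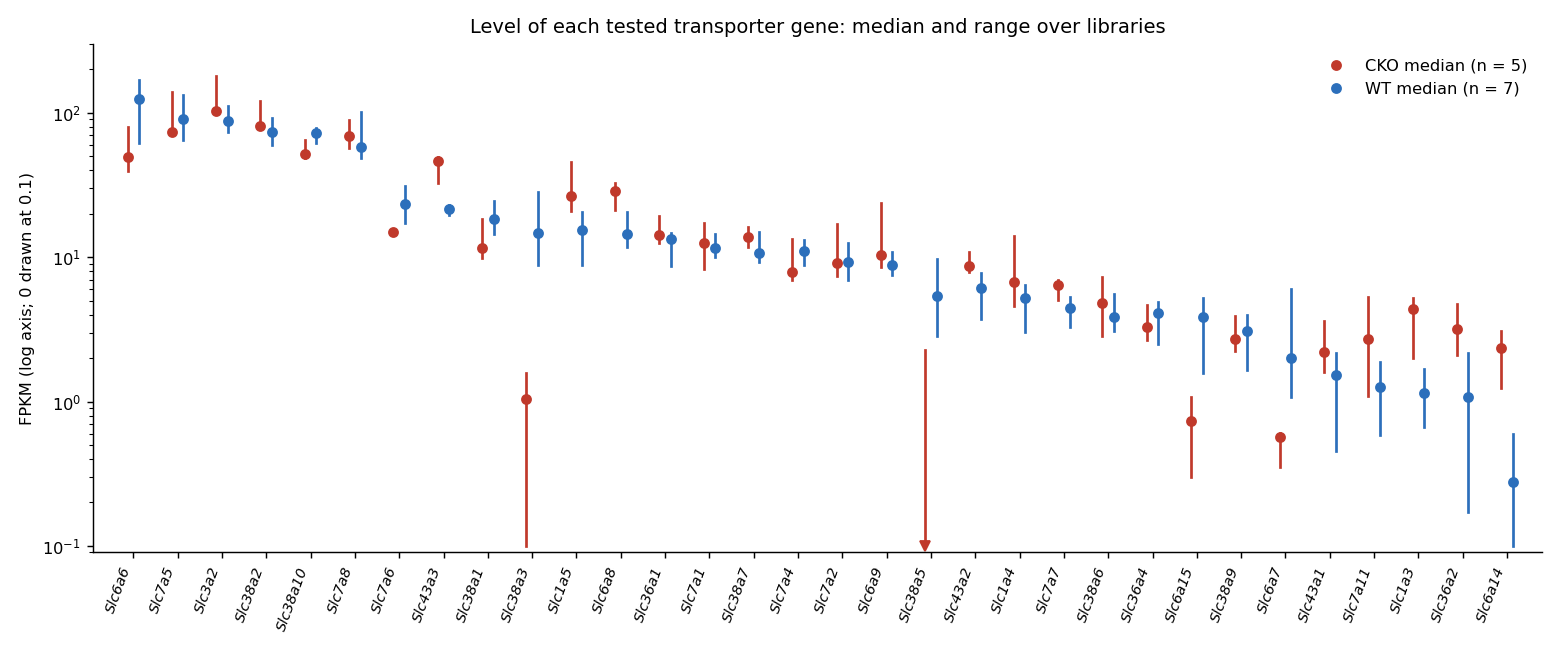
Level in FPKM (log axis) of the 32 tested transporter genes, ordered by their WT mean. Dots are medians and lines run from the lowest to the highest library, in red for CKO (n = 5) and blue for WT (n = 7), with values of 0 drawn at 0.1 and the CKO median of 0 for Slc38a5 as an arrow. The CKO medians of Slc38a3 (1.05 FPKM), Slc6a15 (0.731 FPKM), Slc6a7 (0.568 FPKM) and Slc38a5 (0) lie below the lowest WT library of the same gene.

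In CKO ovaries, 7 members rose and 7 fell (limma on log2(FPKM + 1), Benjamini-Hochberg adjusted over all 13168 genes tested, threshold 0.05). Over all genes tested, 16.3% were called, 8.7% higher and 7.59% lower, against 14 of the 32 tested members. The median log2 fold change was 0.19 over the tested members and -0.005 over all genes tested, and the median size of the change regardless of sign was 0.49 over the members and 0.21 over all genes. Of the 23 members at 1 FPKM or more in every library, 7 were called, 4 higher and 3 lower, against 15% of the 11058 genes at that level. For 11 of the tested members all CKO libraries lay on one side of all WT libraries, with 6 higher and 5 lower in CKO, against 7.73% of all genes tested (4.09% higher and 3.65% lower). Slc6a14 and Slc6a7, which entered through 1 genotype only, are in the 14 and in the 11. With no WT library at 1 FPKM, Slc6a14 could enter only with all 5 CKO libraries above all WT libraries. By family, the calls in Slc1a, Slc36a and Slc43a were all rises (2, 1 and 2), those in Slc38a and Slc7a were all falls (3 and 1), and Slc6a had 2 rises and 3 falls.

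**Figure D2:**
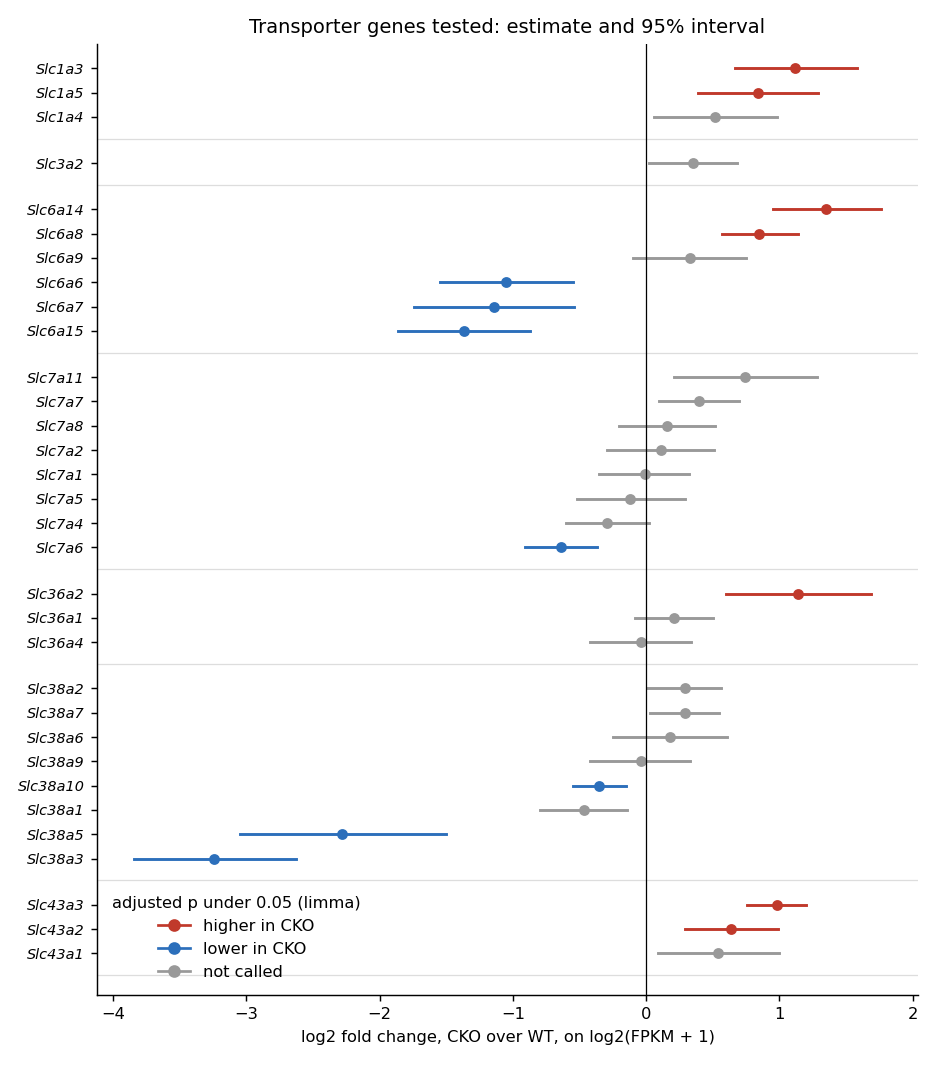
Estimated log2 fold change of CKO over WT with its 95% interval for the 32 tested transporter genes, grouped by family from Slc1a at the top to Slc43a at the bottom. Red marks genes higher in CKO, blue genes lower in CKO and grey genes not called at an adjusted p of 0.05. Slc38a3 at -3.24 and Slc38a5 at -2.28 lie farthest from 0.

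The largest falls were in the system N carriers. Slc38a3 and Slc38a5 encode the sodium-coupled transporters SNAT3 and SNAT5, which carry glutamine and other neutral amino acids and exchange protons in return. Slc38a3 (chr9:107650634-107669530, minus strand, mm10) was at 1.58, 0.332, 0, 1.195 and 1.05 FPKM in CKO replicates 1 to 5. In WT it was at 17.4, 20.7, 14.8, 13.6, 10.6 and 8.86 FPKM in replicates 1, 2, 3, 4, 6 and 7 and at 28.2 FPKM in the unnumbered library. Every CKO library was below every WT library, with a log2 fold change of -3.24 (SE 0.28, adjusted p = 4.46e-05, limma), which understates a change at such low values.

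Slc38a5 (chrX:8271133-8280179, plus strand) was listed at 0 in CKO replicates 2, 4 and 5, at 0.303 FPKM in replicate 3 and at 2.29 FPKM in replicate 1. In WT it lay at 9.71, 9.585, 2.855, 5.34, 3.005 and 3.42 FPKM in replicates 1, 2, 3, 4, 6 and 7 and at 8.82 FPKM in the unnumbered library. The genotypes did not overlap, although CKO replicate 1 came close to the lowest WT library, and the log2 fold change was -2.28 (SE 0.36, adjusted p = 0.00105, limma). On its longest transcript of 1983 bases, 1 fragment was worth 0.150 to 0.329 FPKM, so the value in CKO replicate 3 is of the size of 1 or 2 fragments.

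The system A carriers examined here, Slc38a1 and Slc38a2, did not pass. The make-up of the Slc38a surface carriers examined here differed between the genotypes. Slc38a2, the widely expressed system A carrier SNAT2, had 90.4 ± 17.3 FPKM in CKO (SD, n = 5) and 73.6 ± 10.8 FPKM in WT (SD, n = 7) and did not pass (adjusted p = 0.145, limma). Slc38a1, which encodes SNAT1, had 12.9 ± 3.36 FPKM in CKO (SD, n = 5) and 18.0 ± 3.41 FPKM in WT (SD, n = 7), at an adjusted p = 0.0544 (limma). Its call depended on single libraries: without CKO replicate 3, where it was at 18.5 FPKM, the log2 fold change moved to -0.60 (adjusted p = 0.0143, limma), and it also passed without WT replicate 3 or 7 (adjusted p = 0.0455 and 0.0478). Slc38a3 and Slc38a5 together held between 0.218% and 4.10% of the summed FPKM of Slc38a1, Slc38a2, Slc38a3 and Slc38a5 in CKO libraries, with a median of 1.00%. In WT libraries this share, which largely restates the falls of Slc38a3 and Slc38a5, lay between 12.3% and 28.3%, with a median of 19.3%. The sum itself overlapped, from 92.3 to 139 FPKM in CKO and from 91.7 to 141 FPKM in WT.

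Slc38a10 (chr11:120103960-120151346, minus strand) fell by a smaller margin. It was at 48.8, 50.8, 64.85, 57.9 and 52.0 FPKM in CKO replicates 1 to 5, against a lowest, median and highest WT value of 62.3, 72.5 and 78.8 FPKM. CKO replicate 3 lay inside the WT range and the other CKO libraries below it, with a log2 fold change of -0.35 (SE 0.10, adjusted p = 0.0224, limma). The call was lost without CKO replicate 1 (log2 fold change -0.31, adjusted p = 0.06) or CKO replicate 5 (-0.33, adjusted p = 0.0548), and in the exact Wilcoxon test across genes (adjusted p = 0.0682). The lysosomal members Slc38a7, which exports glutamine, and Slc38a9, a lysosomal arginine sensor of mTORC1, did not pass. Slc38a7 had 13.8 ± 1.74 FPKM in CKO (SD, n = 5) and 11.2 ± 1.82 FPKM in WT (SD, n = 7), and passed only without WT replicate 2 (log2 fold change 0.35, adjusted p = 0.0412, limma). For Slc38a9 the estimate was -0.04, with a 95% interval from -0.42 to 0.33. Slc38a6, at 4.95 ± 1.80 FPKM in CKO (SD, n = 5) and 4.14 ± 0.980 FPKM in WT (SD, n = 7), had an interval from -0.25 to 0.61.

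In the Slc6a family, carriers of sodium- and chloride-coupled transport, 3 members fell. The neutral amino acid carrier Slc6a15 (chr10:103367783-103419377, plus strand), also known as B0AT2 and best known from brain, was at 0.731, 0.776, 0.299, 1.07 and 0.562 FPKM in CKO replicates 1 to 5. Its lowest, median and highest WT values were 1.59, 3.86 and 5.18 FPKM, above all CKO libraries. The log2 fold change was -1.37 (SE 0.23, adjusted p = 0.0015, limma).

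The proline carrier Slc6a7 (chr18:60995380-61014222, minus strand) was at 0.605, 0.354, 0.477, 0.568 and 0.598 FPKM in CKO replicates 1 to 5, against 1.07, 1.99 and 5.98 FPKM for the lowest, median and highest WT library. No CKO library reached the WT range, and the log2 fold change was -1.14 (SE 0.28, adjusted p = 0.0137, limma). WT libraries themselves differed by several fold, with replicates 4 and 7 at 5.98 and 4.62 FPKM and the others at 2.26 FPKM or less.

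Slc6a6 (chr6:91684053-91759066, plus strand), the carrier of taurine and beta-alanine, was the member with the largest fall in FPKM. It was at 39.6, 49.3, 47.9, 73.8 and 79.3 FPKM in CKO replicates 1 to 5, and at 62.1, 125 and 170 FPKM in the lowest, median and highest WT library. The lowest WT value was that of the unnumbered library, below CKO replicates 4 and 5, and the next WT library was at 95.6 FPKM. The log2 fold change was -1.05 (SE 0.23, adjusted p = 0.0074, limma), and the gene did not pass the exact Wilcoxon test across genes (adjusted p = 0.0682).

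Slc7a6 (chr8:106168857-106198706, plus strand), the light chain y+LAT2 that exchanges cationic for neutral amino acids, fell to a nearly uniform level. It was at 15.2, 15.7, 15.01, 15.05 and 14.9 FPKM in CKO replicates 1 to 5, an SD of 0.295 FPKM, while the lowest, median and highest WT values were 17.2, 23.2 and 31.0 FPKM. All CKO libraries were below all WT libraries, with a log2 fold change of -0.64 (SE 0.13, adjusted p = 0.00377, limma).

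**Figure D3:**
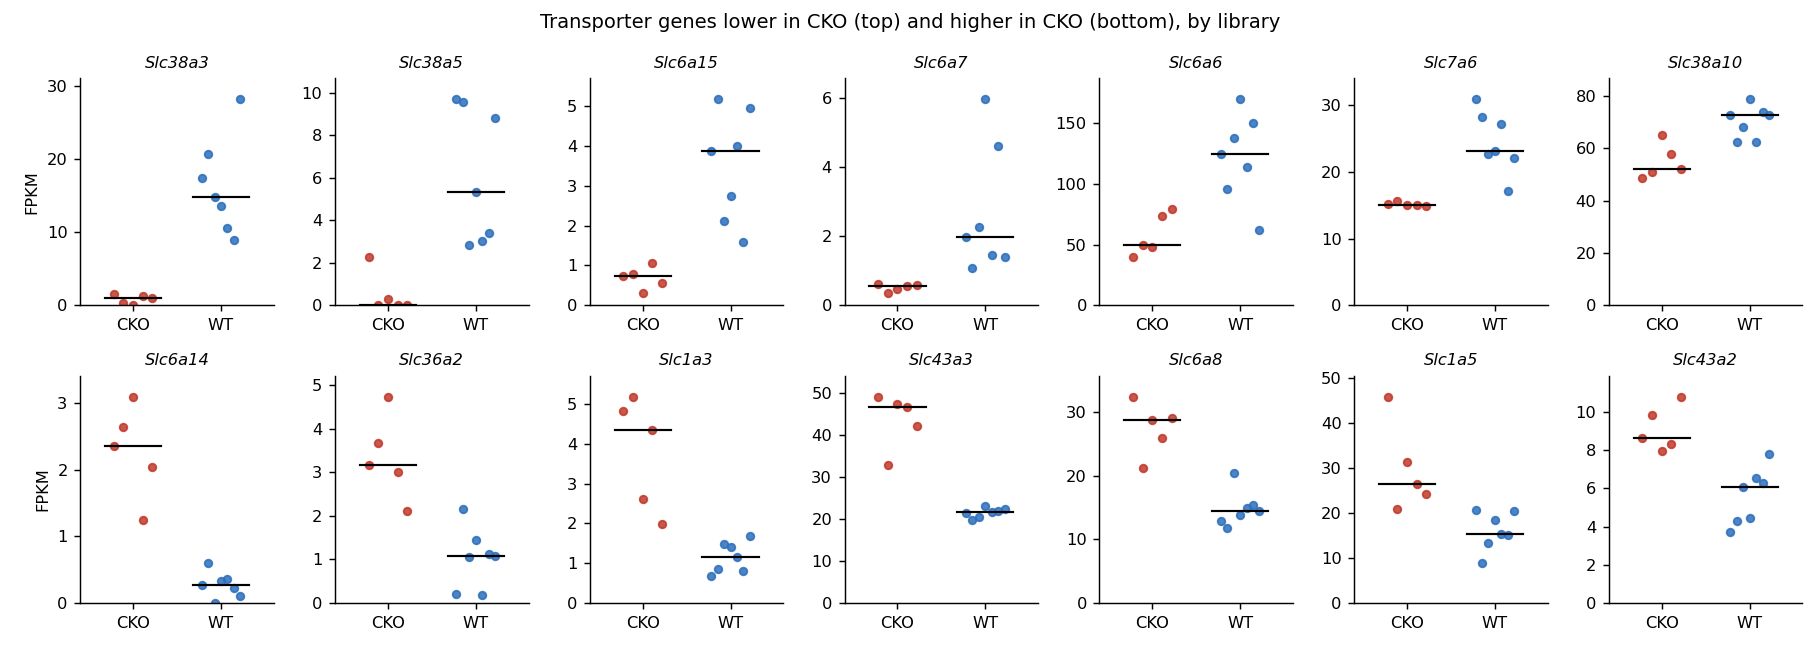
FPKM of the 7 transporter genes lower in CKO (top row) and the 7 higher in CKO (bottom row), each on its own axis from 0. Dots are libraries, red for CKO (n = 5) and blue for WT (n = 7), and black lines are medians. The genotypes overlap in Slc6a6, Slc38a10 and Slc36a2 and in no other panel.

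Markers of granulosa cells and most of the tested oocyte markers were lower in CKO as well. In whole ovaries fewer cells of a type and less RNA per cell cannot be told apart. All 12 granulosa markers fell, and their summed level was 1348 to 2580 FPKM in CKO and 3911 to 7046 FPKM in WT. Their median log2 fold change was -2.73. The log2(FPKM + 1) scale understates falls at low values, so the ratio of means, WT over CKO, is given as well. This ratio ran from 1.43 (Foxl2) to 16.75 (Inhba) for these markers. It was 19.6 for Slc38a3, 11.8 for Slc38a5, 5.09 for Slc6a15 and 5.155 for Slc6a7, all with CKO means under 1 FPKM. For Slc6a6, Slc7a6 and Slc38a10 it was 2.10, 1.62 and 1.28. Of 12 oocyte markers, 7 of the 10 tested fell, with sums of 13.5 to 69.1 FPKM in CKO and 73.3 to 237 FPKM in WT, and no marker of either list was at 0 throughout. The oocyte markers Nlrp5, Nobox and Figla were not called, with log2 fold changes of -0.02, 0.17 and 0.74, and Zp1 and Zp2 were below the filter. Among CKO libraries, replicate 1 had the highest granulosa sum, 2580 FPKM, and also the highest Slc38a3, Slc38a5 and Slc6a7. The other members that fell, Slc6a15, Slc6a6, Slc7a6 and Slc38a10, were highest in CKO replicates 4, 5, 2 and 3. Slc6a6 was lowest in CKO replicate 1, at 39.6 FPKM. Among WT libraries the unnumbered one had the lowest granulosa sum, 3911 FPKM, the highest oocyte sum, 237 FPKM, and the highest Slc38a3. Inha was the largest part of the granulosa sum in every library, so the order of libraries by that sum mostly follows Inha. The granulosa markers of the unnumbered library went different ways: Amh was the highest of WT, at 309 FPKM. Its Cyp19a1 and Inhba were the lowest of WT, at 1.26 and 39.4 FPKM. All 7 markers of dividing cells also fell, with sums of 16.8 to 46.8 FPKM in CKO and 69.0 to 100.1 FPKM in WT, while theca cell markers had no call in 7 tested. Of 5 luteal markers, 1 fell, Parm1, with sums of 134 to 669 FPKM in CKO and 108 to 1799 FPKM in WT. WT replicates 4 and 7 had the highest luteal sums and the highest Slc6a6 and Slc6a7 of WT. The luteal sum was lowest in the unnumbered WT library and CKO replicate 1, where Slc6a6 was lowest in WT and CKO. CKO replicate 3 had the highest CKO luteal sum, with Slc6a6 at 47.9 FPKM, below replicates 4 and 5. The part of granulosa cells, luteal cells, oocytes and cell division in the falls was not tested.

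**Figure D4:**
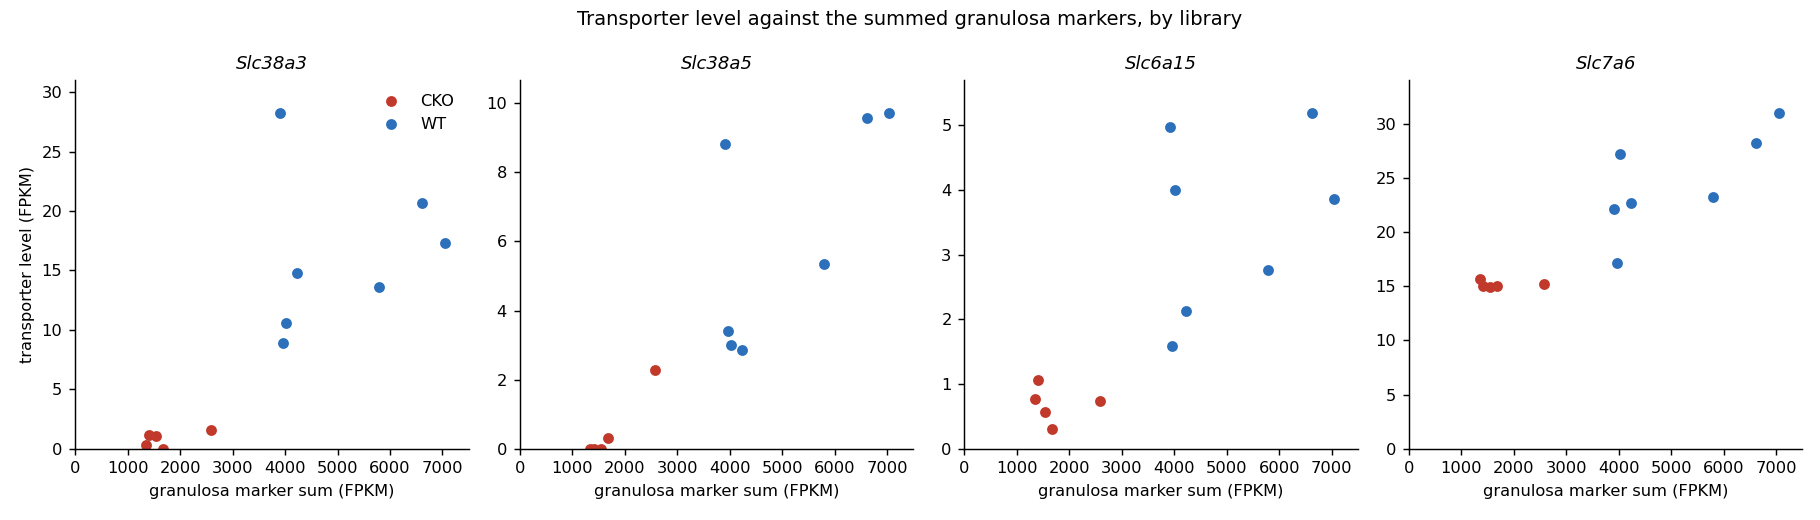
Level of Slc38a3, Slc38a5, Slc6a15 and Slc7a6 in FPKM (vertical axes) against the summed FPKM of 12 granulosa markers (horizontal axes), 1 dot per library, red for CKO and blue for WT. CKO libraries sit at a granulosa sum of 2580 FPKM or less and WT libraries at 3911 FPKM or more. The WT library with the lowest granulosa sum has the highest Slc38a3, 28.2 FPKM, and also the highest Amh of WT. Inha is the largest part of the sum.

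In the Slc1a family, which carries acidic and neutral amino acids, 2 of 3 tested members rose. Slc1a3 (chr15:8634124-8710764, minus strand), the glutamate and aspartate carrier GLAST best known from glia, was at 4.82, 5.18, 2.62, 4.34 and 1.995 FPKM in CKO replicates 1 to 5. Its lowest, median and highest WT values were 0.667, 1.15 and 1.69 FPKM, all below the CKO libraries, and the log2 fold change was 1.12 (SE 0.21, adjusted p = 0.00281, limma). Slc1a5 (chr7:16781340-16798274, plus strand), the glutamine exchanger ASCT2, was at 45.8, 20.8, 31.2, 26.4 and 24.1 FPKM in CKO replicates 1 to 5, against 8.88, 15.3 and 20.7 FPKM for the lowest, median and highest WT library. CKO replicate 2 lay just above the highest WT library, and the log2 fold change was 0.84 (SE 0.21, adjusted p = 0.015, limma). The related exchanger Slc1a4 had 7.97 ± 3.58 FPKM in CKO (SD, n = 5) and 5.01 ± 1.03 FPKM in WT (SD, n = 7) and did not pass (adjusted p = 0.12, limma).

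In the Slc43a family, sodium-independent carriers, 2 of 3 members rose. Slc43a3 (chr2:84936579-84958509, plus strand) was at 49.2, 32.9, 47.5, 46.7 and 42.2 FPKM in CKO replicates 1 to 5. WT libraries were tightly grouped, with a lowest, median and highest value of 19.7, 21.6 and 23.1 FPKM. The genotypes did not overlap, with a log2 fold change of 0.98 (SE 0.10, adjusted p = 0.000208, limma). Slc43a2 (chr11:75531694-75577575, plus strand), the large neutral amino acid carrier LAT4, was at 8.64, 9.82, 7.94, 8.31 and 10.8 FPKM in CKO replicates 1 to 5, against 3.71, 6.095 and 7.82 FPKM for the lowest, median and highest WT library. CKO replicate 3 and the unnumbered WT library nearly met, and the log2 fold change was 0.64 (SE 0.16, adjusted p = 0.0156, limma). Slc43a1, which encodes LAT3, had 2.45 ± 0.853 FPKM in CKO (SD, n = 5) and 1.37 ± 0.544 FPKM in WT (SD, n = 7), without passing (adjusted p = 0.1, limma).

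Slc6a14 (chrX:21714896-21742355, plus strand), a broad carrier of neutral and cationic amino acids, was near the detection limit in WT. It was at 2.35, 2.64, 3.09, 1.24 and 2.04 FPKM in CKO replicates 1 to 5. In WT it was at 0.276, 0.596, 0, 0.329, 0.355 and 0.219 FPKM in replicates 1, 2, 3, 4, 6 and 7 and at 0.105 FPKM in the unnumbered library. The log2 fold change was 1.35 (SE 0.19, adjusted p = 0.000539, limma), and leaving out any CKO library removed the gene from the test, since fewer than 5 libraries then reached 1 FPKM.

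The creatine transporter Slc6a8 (chrX:73673150-73682502, plus strand) was at 32.4, 21.2, 28.8, 26.0 and 29.0 FPKM in CKO replicates 1 to 5, with a lowest, median and highest WT value of 11.8, 14.5 and 20.5 FPKM. CKO replicate 2 was just above WT replicate 3, the highest WT library, and the log2 fold change was 0.85 (SE 0.13, adjusted p = 0.000998, limma). Slc36a2 (chr11:55158470-55185077, minus strand), a proton-coupled carrier of glycine, alanine and proline, was at 3.18, 3.68, 4.74, 3.01 and 2.11 FPKM in CKO replicates 1 to 5, against 0.172, 1.07 and 2.17 FPKM for the lowest, median and highest WT library. The lowest CKO library and the highest WT library overlapped, and the log2 fold change was 1.14 (SE 0.25, adjusted p = 0.00729, limma). Its relatives did not pass: Slc36a1, found on lysosomes and the cell surface, had 15.2 ± 2.59 FPKM in CKO (SD, n = 5) and 12.97 ± 1.99 FPKM in WT (SD, n = 7), and the interval of the Slc36a4 estimate ran from -0.42 to 0.34.

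Markers of several other cell types were higher in CKO beside these rises. The summed macrophage markers lay between 1645 and 4787 FPKM in CKO and between 492 and 1566 FPKM in WT, and 11 of 13 rose. The stroma markers lay between 2820 and 3751 FPKM in CKO and between 1141 and 1840 FPKM in WT, with 5 of 8 higher, and the mast cell markers between 54.8 and 261.5 FPKM in CKO and between 0.444 and 14.2 FPKM in WT, with 5 of 5 higher. CKO replicates 1 and 5 had the highest macrophage sums, 4623 and 4787 FPKM. Without both, Slc1a5 had a log2 fold change of 0.70 and Slc43a2 of 0.58, against 0.84 and 0.64 with all libraries. Neither passed (adjusted p = 0.0707 and 0.0878, limma), while Slc43a3, Slc6a8, Slc1a3 and Slc36a2 still did. Among the falls, Slc38a10 and Slc6a7 lost the call with log2 fold changes of -0.27 and -1.19 (adjusted p = 0.145 and 0.0521, limma). Over the whole table, genes higher in CKO then numbered 671, against 1145 with all libraries. The oviduct gene Ovgp1 stood at 252 FPKM in CKO replicate 2 and 81.9 FPKM in CKO replicate 3, against 1.88 FPKM or less in the other CKO libraries and 1.46 FPKM or less in WT. Without both, Slc36a2 (adjusted p = 0.0612, log2 fold change 0.96), Slc43a2, Slc6a6 and Slc6a7 did not pass (adjusted p = 0.0515, 0.0572 and 0.0684 for the last 3, limma). The log2 fold changes of these 3 were then 0.66, -0.91 and -1.07, against 0.64, -1.05 and -1.14 with all libraries. Of 4 adipocyte markers, Fabp4 rose and Plin1 fell, Adipoq reached at most 0.371 FPKM in CKO and 0.677 FPKM in WT, and Cidec was listed at 0 throughout, with sums of 13.7 to 51.4 FPKM in CKO and 10.6 to 17.2 FPKM in WT. The part of these cell types in the rises was not tested.

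The heavy chain and most of its light chains did not pass. Slc3a2, or CD98, which brings the light chains to the cell surface, lay between 99.3 and 180 FPKM in CKO and between 74.0 and 112 FPKM in WT (log2 fold change 0.35, SE 0.15, adjusted p = 0.141, limma). Slc7a5, or LAT1, lay between 73.2 and 139 FPKM in CKO and between 65.2 and 132 FPKM in WT, and the interval of its log2 fold change ran from -0.52 to 0.29. Slc7a8, or LAT2, lay between 57.2 and 89.2 FPKM in CKO and between 49.0 and 101 FPKM in WT. Slc7a7, or y+LAT1, which macrophages also express, lay between 5.06 and 6.97 FPKM in CKO and between 3.26 and 5.32 FPKM in WT, at an adjusted p = 0.065 (limma), and it overlaps Oxa1l on the opposite strand, whose reads cannot be told apart where strand was not used. Slc7a11, the cystine and glutamate exchanger xCT, lay between 1.08 and 5.28 FPKM in CKO and between 0.589 and 1.87 FPKM in WT (adjusted p = 0.0572, limma). It passed without CKO replicate 4 (log2 fold change 0.95, adjusted p = 0.0154) or without the unnumbered WT library (0.81, adjusted p = 0.0463). Slc7a6 made up 5.88% to 9.77% of the summed FPKM of Slc7a5, Slc7a6, Slc7a7, Slc7a8 and Slc7a11 in CKO libraries, and 10.2% to 19.1% in WT libraries. These shares did not overlap, which largely restates the fall of Slc7a6.

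The carriers of cationic amino acids that work without a heavy chain did not pass. Slc7a1 had 11.9 ± 3.61 FPKM in CKO (SD, n = 5) and 11.7 ± 1.46 FPKM in WT (SD, n = 7), and the interval of its log2 fold change ran from -0.35 to 0.32. For Slc7a2 the interval ran from -0.29 to 0.51. Slc7a4, a relative with unclear cargo that overlaps P2rx6 on the opposite strand, had 9.09 ± 2.57 FPKM in CKO (SD, n = 5) and 11.1 ± 1.297 FPKM in WT (SD, n = 7) and passed only without CKO replicate 4, where it was at 13.4 FPKM (log2 fold change -0.43, adjusted p = 0.0345, limma). The glycine carrier Slc6a9, or GLYT1, which oocytes and early embryos use to regulate their volume, had 12.45 ± 6.28 FPKM in CKO (SD, n = 5) and 9.08 ± 1.12 FPKM in WT (SD, n = 7), without passing (adjusted p = 0.294, limma). It overlaps Ccdc24 and B4galt2 on the opposite strand, with the same limit as Slc7a7.

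CKO replicate 3 stood apart from the other CKO libraries in many of these genes, a pattern noticed after the values were seen. It had the highest CKO value in 15 of the 32 tested members, while the other CKO libraries had the highest value in 2 to 7. Slc3a2 was at 180 FPKM in CKO replicate 3 and between 99.3 and 105 FPKM in the other CKO libraries. Slc7a5 was at 139 FPKM there and between 73.2 and 76.0 FPKM in the others. For Slc6a9 the values were 23.6 FPKM and 8.58 to 10.4 FPKM, and for Slc1a4 they were 13.95 FPKM and 4.601 to 8.21 FPKM. Slc38a2, Slc7a1 and Slc7a11 were also highest in that library, at 120, 17.3 and 5.28 FPKM. The transcription factor Atf4 raises genes of amino acid uptake and synthesis when amino acids are short or the endoplasmic reticulum is stressed. In the list of 20 Atf4 response genes, 19 were tested, and CKO replicate 3 had the highest CKO value in 14 of them. How often this library was highest over all genes tested was not counted. Whether the pattern is particular to these genes therefore cannot be told.

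**Figure D5:**
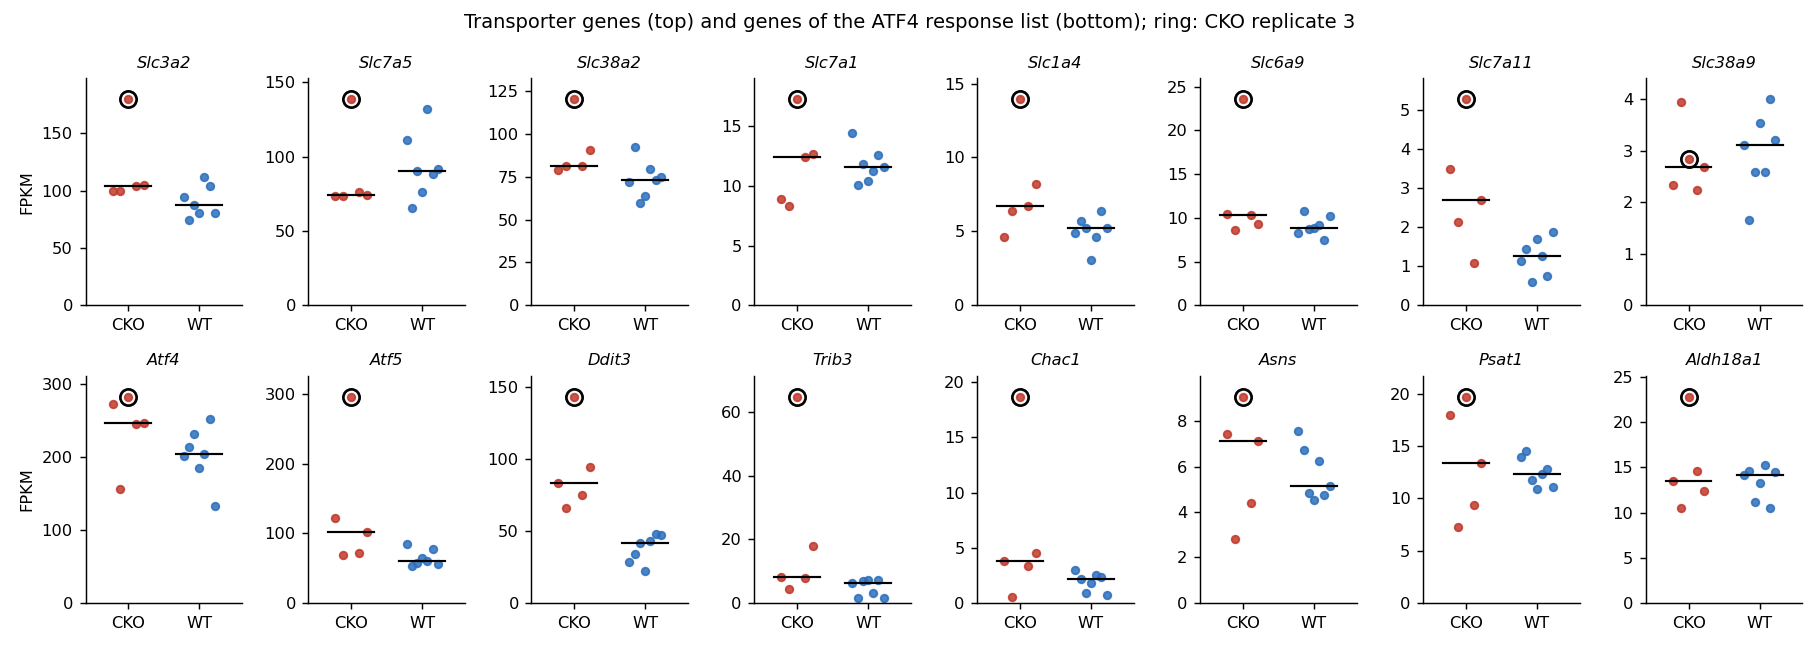
FPKM of 8 transporter genes (top row) and 8 genes of the Atf4 response list (bottom row), each on its own axis from 0, with CKO libraries in red (n = 5) and WT libraries in blue (n = 7). Black lines are medians and the ring marks CKO replicate 3. That library is the highest of all 12 in every panel except Slc38a9, where it lies at 2.85 FPKM within both groups.

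Among the Atf4 response genes, Chac1, a glutathione-degrading enzyme, was at 18.7 FPKM in CKO replicate 3, between 0.553 and 4.52 FPKM in the other CKO libraries and between 0.758 and 2.99 FPKM in WT. The pseudokinase Trib3 was at 64.9 FPKM in CKO replicate 3, between 4.47 and 17.9 FPKM in the other CKO libraries and between 1.48 and 7.35 FPKM in WT. As a list, 2 of the 19 rose and 0 fell, against 8.7% higher and 7.59% lower over all genes, with a median log2 fold change of 0.24. Ddit3, a stress-induced transcription factor, had a log2 fold change of 1.27 (SE 0.21, adjusted p = 0.00149, limma) without overlap between the genotypes, and Herpud1, of endoplasmic reticulum protein degradation, one of 0.48 (SE 0.13, adjusted p = 0.021, limma). Atf5 and Trib3 did not pass (adjusted p = 0.0672 and 0.0828, limma). The same library had a relative depth of 0.889, against 0.953 to 1.65 in the other CKO libraries, and the Ovgp1 level given above, whose part was not tested. CKO replicate 2, with 252 FPKM of Ovgp1, had the highest CKO value in 6 of the 32 tested members and the lowest in 7. It had the highest CKO value in 1 of the 19 Atf4 response genes.

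The heavy chain and Slc7a5 varied together within the genotypes. Over 12 libraries, the deviations of their log2(FPKM + 1) values from the genotype means had a Pearson r of 0.91, and without CKO replicate 3 the r was 0.82 over 11 libraries. For Slc7a5 and Slc7a8 the r was 0.79 with all libraries and 0.77 without CKO replicate 3. In WT, replicate 6 had the highest Slc3a2, Slc7a5 and Slc7a8, at 112, 132 and 101 FPKM. The values of each pair come from the same libraries and share their scaling.

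Promoter sequences from RefSeq (GRCm38.p6) were available for 40 of the 58 members, as windows from 250 bases before to 50 bases after a transcription start. They were searched on both strands for TGATGNAAN, the C/EBP-ATF response element through which Atf4 acts, after the pattern in CKO replicate 3 had been seen. Matches were found for 3 of the 40 members, Slc7a11, Slc1a4 and Slc7a7, against 3.95% of all 32851 windows and 4.5% of 27025 genes with a window. Slc7a11 holds a pair of matches in opposite orientation, and the Slc7a7 window shown holds a pair in the same orientation. The windows of these 3 genes are shown from 150 bases before to 20 bases after the start, 5′ to 3′ on the gene's strand, with the matches in capitals; a match read on the other strand appears as its reverse complement.
Slc7a11, chr3:50443594-50443763, minus strand: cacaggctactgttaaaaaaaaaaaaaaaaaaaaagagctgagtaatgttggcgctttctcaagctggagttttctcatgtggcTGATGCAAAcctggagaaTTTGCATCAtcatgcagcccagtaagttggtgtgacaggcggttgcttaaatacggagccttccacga
Slc1a4, chr11:20332694-20332863, minus strand: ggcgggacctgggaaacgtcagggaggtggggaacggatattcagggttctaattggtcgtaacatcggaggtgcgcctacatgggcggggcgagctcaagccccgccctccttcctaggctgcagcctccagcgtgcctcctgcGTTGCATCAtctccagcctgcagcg
Slc7a7, chr14:54417925-54418094, minus strand: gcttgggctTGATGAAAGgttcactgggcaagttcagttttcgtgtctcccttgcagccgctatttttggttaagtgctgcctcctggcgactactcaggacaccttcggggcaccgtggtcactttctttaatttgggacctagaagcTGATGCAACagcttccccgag
All 3 genes had their highest CKO value in replicate 3, and so did members with a window and no match, such as Slc3a2, Slc38a2 and Slc6a9. A second motif, the NCAAGGTCA, to which NR5A receptors bind, was searched because granulosa cells depend on receptors of that family. It had 2 matches in 1 member, Slc6a11, which was below the detection filter, against 1.55% of all windows. The motifs did not overlap each other in these windows.

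Among the 26 members that were not tested, a few reached 1 FPKM in some library. The glutamate carrier Slc1a1 was at 3.49 and 2.85 FPKM in CKO replicates 2 and 3, the libraries with high Ovgp1, at 0.0775 to 0.509 FPKM in the other CKO libraries and at 0.890 FPKM or less in WT. Slc1a6, another glutamate carrier, was closest to the filter, with 3 libraries at 1 FPKM or more and a highest value of 1.01 FPKM in CKO and 1.45 FPKM in WT. Slc36a3, Slc6a17 and Slc7a15 had highest values of 1.15, 1.15 and 0.518 FPKM in CKO and of 1.15, 0.338 and 1.19 FPKM in WT. Another 14 never reached 1 FPKM, among them the monoamine carriers and Slc38a11, which was listed at 0 in all CKO libraries and reached 0.977 FPKM in WT. Listed at 0 in every library were Slc3a1, its light chain Slc7a9 and the neutral carriers Slc6a18 and Slc6a19, all known from kidney or intestine, as well as Slc7a10 and Slc7a12.

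Carriers, enzymes and sensors of amino acids outside the 7 families were examined as 3 further lists. Of 15 tested carriers of other families, 2 rose and 1 fell, with a median log2 fold change of 0.03, and this share was close to the 16.3% called over all genes. The lysosomal peptide and histidine carrier Slc15a3 was at 5.93 to 18.2 FPKM in CKO and 1.33 to 5.03 FPKM in WT (adjusted p = 0.00783, limma), and its highest values were in CKO replicates 1 and 5, where the macrophage sums were also highest. The lysosomal cystine exporter Ctns was at 8.89 ± 0.377 FPKM in CKO (SD, n = 5) and 6.21 ± 1.13 FPKM in WT (SD, n = 7), at an adjusted p = 0.0198 (limma). The mitochondrial aspartate and glutamate carrier Slc25a13 fell, to 5.17 ± 1.63 FPKM in CKO (SD, n = 5), against 9.54 ± 2.24 FPKM in WT (SD, n = 7), while the ornithine carrier Slc25a15 did not pass (adjusted p = 0.206, limma).

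Of 20 tested enzymes of amino acid metabolism, 3 rose and 1 fell, with a median log2 fold change of -0.03, also close to the 16.3% called over all genes. Glutamine synthetase, Glul, was at 308 ± 33.5 FPKM in CKO (SD, n = 5) and 181 ± 53.8 FPKM in WT (SD, n = 7) and did not overlap between the genotypes (adjusted p = 0.00561, limma). Gclm, of glutathione synthesis, and Oat, which makes glutamate from ornithine, rose with log2 fold changes of 0.46 and 0.33 (adjusted p = 0.0142 and 0.0371, limma). Prodh, which degrades proline, fell, to 2.66 ± 0.718 FPKM in CKO (SD, n = 5), against 5.80 ± 1.56 FPKM in WT (SD, n = 7).

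Of 33 genes of amino acid sensing by mTORC1, 7 rose and 2 fell, against 8.7% higher and 7.59% lower over all genes, with a median log2 fold change of 0.08. The folliculin complex, which switches the Rag GTPases on the lysosome, accounts for 3 of the rises. Flcn was at 19.4 ± 2.03 FPKM in CKO (SD, n = 5) and 11.0 ± 1.55 FPKM in WT (SD, n = 7), and its partner Fnip2 at 6.74 ± 1.93 FPKM in CKO and 3.10 ± 0.415 FPKM in WT, both without overlap between the genotypes (adjusted p = 0.00067 and 0.00213, limma). Fnip1 and Nprl3, a subunit of the inhibitory GATOR1 complex, rose with log2 fold changes of 0.61 and 0.52 (adjusted p = 0.00767 and 0.00566, limma).

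The authors' deposited table lists 5 members as higher and 5 as lower in CKO at a q-value under 0.05, and 8 of these 10 were also called here. The other 2 were Slc1a4 and Slc38a1, with q-values of 0.0106 and 0.0138 in the authors' deposited table. Of the 14 members called here, 5 with low values carry a p-value of 1 in the authors' deposited table, as do 35 of the 58 members. Slc38a10, also called here, did not pass there, with a Cuffdiff q-value of 0.0999.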

How the data were processed

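RNA of 12 whole-ovary samples was sequenced after poly(A) selection. Per the labels and the submitters' processing notes, the authors aligned reads to mm10 with TopHat2 2.0.13 and computed and normalized FPKM with Cufflinks 2.2.1; the sources used here do not give the annotation, the scaling or whether strand was used. The deposited columns with a log2 fold change, a q-value and a p-value come from the authors' Cuffdiff run, and 99.9% of genes above a mean of 1 FPKM have a deposited log2 value equal to CKO over WT within 0.01.

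Genes with at least 1 FPKM in at least 5 libraries (13168) were fitted as log2(FPKM + 1) with limma 3.58.1 (R 4.3.3; trended empirical Bayes, group only, two-sided), which was tested on simulated data. On this scale the change of genes with low values is understated. Relative depth came from 1944 genes below 1 FPKM, whose values were whole multiples within 0.1 in 84.7%. The highest correlation between libraries was 0.971. Positions are from GENCODE M21 (mm10). All called and tested members are named, and the 4 smallest p of each other list; further names were chosen after their values were seen. The members and lists were chosen with earlier results of these data known. Alternatives changed the pseudocount, filter, scaling, weights, test, block and libraries. The values of 1 untested member are not reported here.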

Additional observations from a re-analysis of the deposited data

Results flagged for a closer look

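In 64 groups (32 tested members in 2 genotypes), 7 had a library whose gap to its nearest neighbour exceeded the 95% limit for such a gap on the log2(FPKM + 1) scale. Chance flags about 1 in 20 groups, and members that vary together are not independent. In CKO replicate 3, Slc3a2 was at 180 FPKM (other CKO libraries 99.3 to 105 FPKM), Slc7a5 at 139 FPKM (73.2 to 76.0 FPKM) and Slc6a9 at 23.6 FPKM (8.58 to 10.4 FPKM). In CKO replicate 1, Slc38a5 was at 2.29 FPKM, with the other CKO libraries at 0.303 FPKM or less. In WT replicate 2, Slc36a1 was at 8.62 FPKM (other WT libraries 13.2 to 14.8 FPKM) and Slc38a7 at 15.01 FPKM (9.33 to 11.4 FPKM). In WT replicate 6, Slc7a8 was at 101 FPKM (49.0 to 64.7 FPKM).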

How the results depend on the processing

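Under 23 alternatives, 8 of the 14 called members kept their direction and stayed past the threshold wherever they could be tested, 6 lost the call under at least 1 alternative, and none reversed. Leaving out 1 library gave 6 to 8 members higher and 6 to 8 lower, and 869 to 1193 genes higher and 732 to 1091 lower over the whole table, against 7, 7, 1145 and 999 with all libraries. Members higher in CKO numbered 4 when CKO replicates 1 and 5 were left out, and also 4 when replicates 2 and 3 were. Genes higher numbered 671 without CKO replicates 1 and 5 and 749 in the exact Wilcoxon test. With the replicate number as a block, 752 genes were higher and 620 lower, with 7 and 6 members (Slc38a10 lost its call); the numbers do not pair the samples, since the 4 same-numbered pairs had correlations of deviations from -0.071 to 0.0901 and 1 of 4 CKO libraries correlated best with its own number. Every setting without a CKO library removed Slc6a14 from the test by the filter, which lowers the count of members higher without a failed call. No other member higher in CKO lost its call when 1 library was left out. Apart from this and from the fewer libraries that some alternatives hold, the cause of these differences was not tested.

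Among members that were not called, 5 had an estimate near 0 that changed sign. Slc36a4 was at 0.15 with the block, 0.09 without CKO replicates 1 and 5, 0.07 without CKO replicate 1 and the unnumbered WT library, and between -0.12 and 0.04 when 1 library was left out. Under the same settings Slc38a9 was at 0.06, 0.02, 0.02 and between -0.14 and 0.02. Slc7a1 was at 0.03 with sample weights, 0.06 without CKO replicates 1 and 5, 0.07 without CKO replicate 1 and the unnumbered WT library, and between -0.15 and 0.09 when 1 library was left out. Slc7a2 was at -0.16 without CKO replicates 2 and 3, between -0.07 and 0.21 when 1 library was left out, and at 0.27 without CKO replicate 1 and the unnumbered WT library. Slc7a5 was at 0.05 with the block and 0.01 without CKO replicates 1 and 5. The scalings moved the median of all genes by less than 0.1 and gave 7 members higher and 7 lower. Precision is limited by the number of libraries and, at low values and most of all on short transcripts, by few fragments.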
